A study of Rattus norvegicus with 6 samples.

Results

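The 3'-half of a tRNA is the piece that remains from the anticodon to the 3' end when the molecule is cut once in its anticodon loop. The 3'-halves of nuclear tRNAs described here were chosen by position alone, whatever type the deposited table gives them. Each is a distinct sequence that matches a mature tRNA without mismatch, ends within the last 3 bases of that tRNA, and starts anywhere from 2 bases before the anticodon's first base to 2 bases after its last. Asp, Gln and Arg tRNAs were left out, which kept 168 tRNAs of 39 anticodons. The rule found 142 sequences among the 77567 distinct sequences of the series, with 2571 reads. They lay on 43 tRNAs of 24 anticodons and 14 amino acids. The comparison set is the 386 exact 5' fragments of the same 168 tRNAs that start within the first 3 bases and end around the anticodon, with 3624138 reads.

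The libraries were small RNA libraries of muscle from rats of the Lewis strain, aged 6 to 8 weeks, with 3 titled control and 3 titled experimental. The title of the series concerns small RNAs from tRNAs as markers of acute rejection of transplanted composite tissue. What was done to the experimental animals is not given, and a skin characteristic and the design text describe ultraviolet damage of mouse skin, so the titles alone gave the groups. The tables used here hold only tRNA reads, so the tissue could not be checked against its markers. Whether each library stands for an animal of its own is not given, so p-values measure how these libraries vary, and that spread may be technical.

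A mature tRNA ends in the 3 bases CCA, which an enzyme adds after transcription and to which the amino acid is joined. Ribonucleases that act under stress, angiogenin above all, cut the anticodon loop and leave a 5'-half and a 3'-half, so that a single cut makes 1 molecule of each. The pieces need not survive equally well or be read equally well by a sequencing library. Pieces of the tRNAs for glycine, glutamic acid, lysine, valine and histidine are those most often described in stressed mammalian tissue, while Ala and Cys 5'-halves that begin with a run of guanines are known for their action on translation.

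The whole tRNAs below carry leading 3'-halves or, for Gly-GCC, match most of the 5' reads, and are shown to place the cuts. They are written as DNA with the anticodon in capitals, from the deposited alignments, and positions count from 1 at the 5' end.
tRNA-Val-TAC-1-1: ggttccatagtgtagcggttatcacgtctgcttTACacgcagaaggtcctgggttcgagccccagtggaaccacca
tRNA-Ala-CGC-2-1: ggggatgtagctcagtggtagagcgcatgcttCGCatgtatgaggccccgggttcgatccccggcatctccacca
tRNA-Gly-CCC-4-1: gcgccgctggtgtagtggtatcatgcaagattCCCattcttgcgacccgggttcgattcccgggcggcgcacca
tRNA-Gly-GCC-1-1: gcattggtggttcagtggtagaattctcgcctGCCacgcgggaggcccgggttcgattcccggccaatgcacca
tRNA-Asn-GTT-1-1: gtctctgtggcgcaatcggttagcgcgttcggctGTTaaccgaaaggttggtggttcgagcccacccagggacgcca
Leading 3'-halves of these tRNAs follow, named by anticodon and first and last base, with the part of the CCA end they keep in capitals. That of Ala is shared by Ala-CGC and Ala-TGC, since the tRNAs are identical there. The 3'-halves of Glu described further on are likewise shared by Glu-CTC and Glu-TTC.
Val-TAC 37-76: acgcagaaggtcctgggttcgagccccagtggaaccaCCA
Val-TAC 38-76: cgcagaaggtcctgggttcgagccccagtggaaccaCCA
Ala-CGC/TGC 37-75: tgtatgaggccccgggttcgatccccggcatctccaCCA
Gly-CCC 36-74: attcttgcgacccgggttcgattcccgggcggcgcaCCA
Gly-GCC 35-74: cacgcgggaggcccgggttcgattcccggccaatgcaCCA
Asn-GTT 37-76: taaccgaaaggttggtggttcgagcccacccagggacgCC

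In the deposited coordinates, counted from 1, tRNA-Val-TAC-1-1 lies at chr1:228445276-228445348 and tRNA-Gly-CCC-4-1 at chr4:118207496-118207566. tRNA-Gly-GCC-1-1 lies at chr3:43183527-43183597. tRNA-Ala-CGC-2-1 lies at chr17:45554861-45554932 and tRNA-Ala-TGC-1-1 at chr10:34182650-34182721. No rat build is named for these positions: the submitters' processing notes name mm9, which is a mouse build.

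How much of the window could be seen at all was limited by read length, since the longest sequence in the table had 40 nt. A start and an end in the window make 21 possible 3'-halves per tRNA, of which a median of 9 were short enough, and 37.6% over all 168 tRNAs. No tRNA had every one within reach. None was within reach in 35 tRNAs, of which 14 were for Leu, 20 for Ser and 1 for selenocysteine, families known for a long variable arm in the 3'-half. In the 94 tRNAs that make up the largest class, a 3'-half with a whole CCA end fits only if it starts at or after the base behind the anticodon. The 142 members had 36 to 40 nt, with 45 of 39 nt and 41 of 40 nt. In the experimental libraries 20.1% to 20.8% of member reads were 40 nt long, and in the control libraries 64.3%, 27.1% and 40.7%, against 0.116% to 0.599% of all reads. The counts below are therefore of the shorter 3'-halves only.

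The deposited type field did not mark them: all 142 were typed "Other" and none "tiRNA-3", the name used for a 3'-half. The 36 sequences that the table types as tiRNA-3 held 156 reads, were mitochondrial in 35 cases, and all start 1 base after the anticodon's first base. Of the 142 sequences, 50 rested on 1 read, 31 had at least 15 reads and together 88.8% of the reads, and 13 were seen in every library. Only control libraries held 26 and only experimental libraries held 57. Because the experimental libraries were up to 6 times as deep, these 2 counts do not compare the groups. On more than 1 tRNA lay 34 of the sequences and on more than 1 anticodon 18, but none matched more than 1 amino acid, an excluded family or a precursor tRNA.

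The 3'-halves were rare in every library. Control libraries 1, 2 and 3 held 504, 236 and 86 reads of them among 550004, 740627 and 316990 tRNA-aligned reads, and experimental libraries 1, 2 and 3 held 520, 728 and 497 among 876494, 1927269 and 1866227. As a percent of tRNA reads, control libraries 1, 2 and 3 had 0.0916, 0.0319 and 0.0271, and experimental libraries 1, 2 and 3 had 0.0593, 0.0378 and 0.0266. The highest value, control 1, had a 95% Wilson interval of 0.0840% to 0.09999%, and the lowest, experimental 3, of 0.0244% to 0.0291% (intervals here cover counting error only). The groups overlapped: 0.0502% ± 0.0360 (SD, n = 3) against 0.0412% ± 0.0166 (SD, n = 3), with a two-sided exact permutation p = 0.8, and 0.8 after Benjamini-Hochberg adjustment over 4 measures. With 3 libraries against 3 no such p can be below 0.1. The difference rested on control 1, in which the sequence Val-TAC 37-76 alone made up 56.3% of member reads. Without that sequence the means were 0.0316% and 0.0400%, the other way round.

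**Figure D1:**
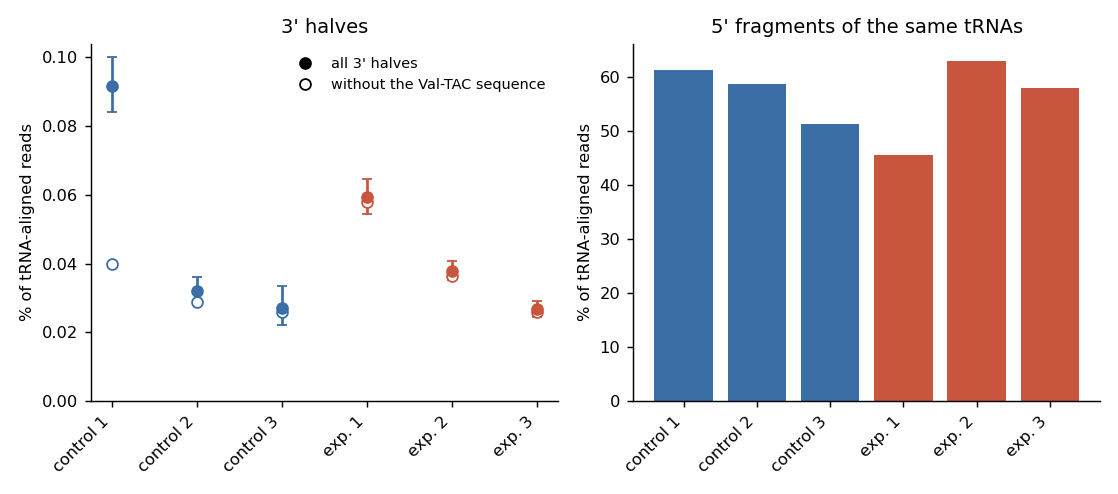
Percent of tRNA-aligned reads that were 3'-halves (left; filled points with 95% Wilson intervals, open points without the sequence Val-TAC 37-76) and 5' fragments of the same tRNAs (right) in each of 3 control and 3 experimental libraries; the vertical scales differ. The 3'-halves lie between 0.0266% and 0.0916% and the groups overlap; control 1 falls among the others once 1 sequence is left out.

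For each 3'-half read there were 669, 1841 and 1887 reads of 5' fragments in control libraries 1, 2 and 3, and 766, 1665 and 2173 in experimental libraries 1, 2 and 3. On the log2 scale the ratio of 3'-halves to 5' fragments was -10.4 ± 0.851 for control and -10.5 ± 0.781 for experimental libraries (SD, n = 3 each, exact permutation p = 0.7, adjusted 0.8). The 5' fragments are not limited by read length in this way. The ratio was therefore also taken with fewer of them, a choice made after the data were seen. Only 5' fragments were kept whose cut would leave a 3'-half short enough to be seen, if only in the form that lacks 2 bases. The ratio was then -8.30 ± 0.988 (SD, n = 3) against -9.74 ± 0.502 (SD, n = 3), without overlap, with the smallest exact permutation p the design allows, 0.1. Counted so, there were fewer 3'-halves per 5' fragment in the experimental libraries, a difference of -1.44 on the log2 scale that is larger than either spread. Read length still limits this ratio. In tRNA-Gly-GCC-1-1 and tRNA-Glu-CTC-1-1 a whole CCA end fits only at starts from 2 nt behind the anticodon's first base. Cuts at 0 and 1 nt entered the ratio all the same. Over all tRNAs such cuts took 16.8% and 2.12% of 5' fragment reads in control libraries and 34.9% and 15.2% in experimental libraries. What this does to the difference was not tested.

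The families took other shares of 3'-halves than of 5' fragments. Glu took 33.2% of 3'-half reads on average over the 6 libraries, Val 21.8%, Gly 21.4% and Ala 15.7%, which leaves small shares for Asn (2.63%), Ile (1.53%), Met (1.18%), Thr (0.806%), Phe (0.562%) and Lys (0.460%), and fewer than 10 reads each for Cys, His, Trp and Pro. Among 5' fragments Gly took 91.5%, Lys 4.73%, Glu 3.09%, His 0.555% and Val 0.126%. Ala had 435 reads of 3'-halves and 83 of 5' fragments, and Asn, Ile and Met had 41, 31 and 25 reads of 3'-halves and no read of a 5' fragment. Lys was the reverse, with 14 reads of 3'-halves against 237957 of 5' fragments.

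**Figure D2:**
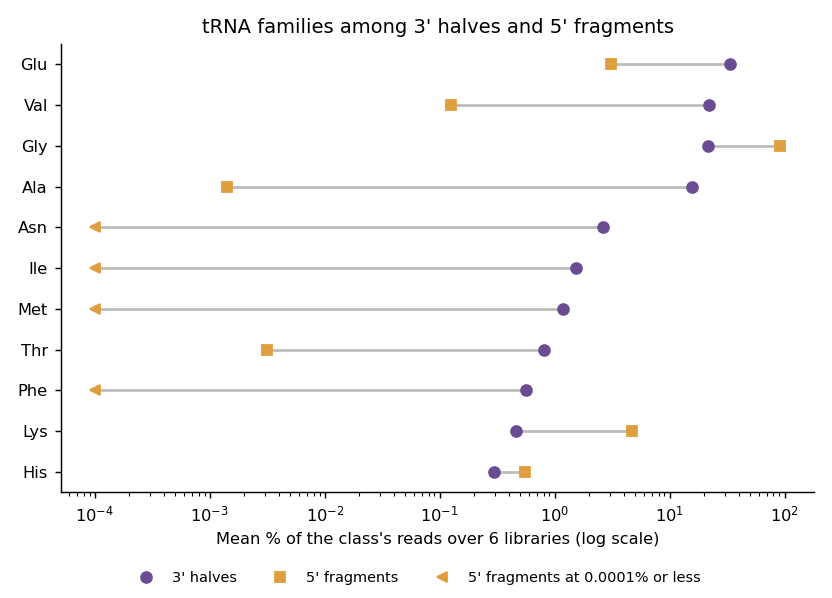
Share of 3'-half reads (circles) and of 5' fragment reads (squares) taken by each amino acid family with at least 5 reads of 3'-halves, as the mean over 6 libraries on a log scale; triangles mark 5' shares at or under 0.0001%. Gly stands at 21.4% of 3'-halves and 91.5% of 5' fragments, while Val, Ala, Asn, Ile and Met are far higher among 3'-halves.

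Within glycine, 1 of the listed tRNAs carried most of the 3'-halves. Of the 529 Gly reads, 398 belonged to tRNA-Gly-CCC-4-1, which had 9779 reads of 5' fragments. tRNA-Gly-GCC-1-1 had 122 reads of 3'-halves and matched 2781489 reads of 5' fragments, of which 553644 were not shared with other tRNAs. tRNA-Gly-CCC-1-1 matched 2233802 reads of 5' fragments, of which only 5957 were not shared with other tRNAs. No 3'-half of it was seen at this depth, where 12 of its 21 possible 3'-halves were short enough. The reason for this absence was not tested. So the 3'-half tells the listed tRNAs apart here, where a 5' fragment often cannot. For glutamic acid the case is opposite. tRNA-Glu-CTC-1-1 and tRNA-Glu-TTC-1-1 share nearly all their 3'-half reads (873 and 869), whereas their 5' fragments tell them apart, with 116378 reads for the first and 408 for the second.

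Exact partners, that is the 5' piece from base 1 to the base before a 3'-half, were common for some 3'-halves and nearly missing for others. Val-TAC 37-76 had 364 reads and its partner, bases 1 to 36, had 1. Ala-CGC/TGC 37-75 had 209 reads and its partner 0, and the partner of Asn-GTT 37-76 was likewise not seen. Gly-CCC 36-74 had 199 reads against 1268 of its partner and Glu 37-75 had 156 against 6127. Glu 35-74 had 78 reads against 27433, and Gly-GCC 35-74 had 24 against 244102. Among these, the partner was thus rarer than the 3'-half for Val-TAC, Ala-CGC/TGC and Asn-GTT and more abundant for Gly and Glu. For Val this holds for Val-TAC only, as all Val tRNAs together had 545 reads of 3'-halves against 5180 of 5' fragments.

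The cut positions of both classes were compared on 1 scale, counted from the anticodon's first base, where 0 is a cut just before the anticodon and 3 a cut just behind it. Reads of 3'-halves began at 3 (1073 reads) and 4 (882), less often at 2 (416) and 1 (192), and hardly at 0 (8 reads), with none at -1 or -2. Cuts of 5' fragments lay mostly at -1 (52.1% of their reads in the mean), -2 (23.5%) and 0 (16.8%) in the control libraries, and at 0 (34.9%), -1 (28.4%) and 1 (15.2%) in the experimental libraries. At -1, 0 and -2 a 3'-half with a whole CCA end would fit in 40 nt in 0, 2 and 0 of the 168 tRNAs, and at 1 in 4. Just beyond the window, exact sequences starting at 5 held 2216 reads, led by Ala-CGC/TGC 38-75 with 548 and Val-TAC 39-76 with 406, and those at 6 held 763. No read started at -3.

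**Figure D3:**
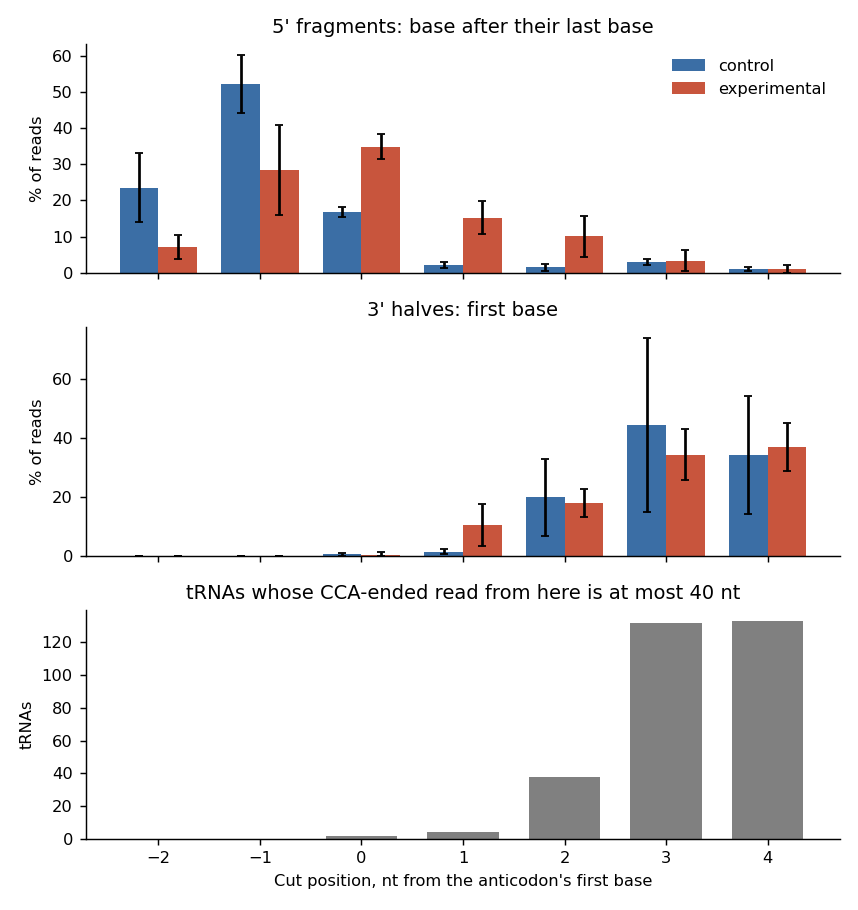
Percent of reads by cut position, in nt from the anticodon's first base, for 5' fragments (top) and 3'-halves (middle), as mean and SD of 3 control and 3 experimental libraries, and the number of tRNAs in which a read with the whole CCA end would fit in 40 nt (bottom). The 3'-halves begin at 1 to 4, where the bottom panel rises from 4 to 133 tRNAs, and most 5' fragments are cut at -2 to 0, where it is 0 to 2.

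The mean start of 3'-halves was 3.03, 3.33 and 2.95 nt behind the anticodon's first base in control libraries 1, 2 and 3 and 3.01, 3.09 and 2.81 nt in experimental libraries 1, 2 and 3. The groups overlapped (3.10 ± 0.197 against 2.97 ± 0.141 nt, SD, n = 3 each, exact permutation p = 0.5, adjusted 0.8). Position 1, a cut behind the anticodon's first base, took 1.40% ± 0.872 of reads for control against 10.5% ± 7.16 for experimental libraries (SD, n = 3 each), without overlap and with an exact permutation p = 0.1. The gap was narrow, since control 3 had 2 of its 86 reads there and experimental 1 had 15 of its 520. Of the 192 reads of 3'-halves at this position, 167 were of Glu. Cuts of 5' fragments at the same position took 2.12% ± 0.813 and 15.2% ± 4.47 (SD, n = 3 each).

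By the bases on either side, 37.9% of 3'-half reads began behind a C and before an A, as in Val-TAC 37-76 and Gly-CCC 36-74, against 14.3% of the cut positions that could be seen. Of the 1044 reads with this cut, 364 were Val-TAC 37-76, 284 of them in control 1. A position could be seen where the 3'-half fits in 40 nt, if only in the form that lacks 2 bases. A cut between A and T took 17.2% of reads and one between A and C 17.2%, against 5.57% of positions each. The 5' fragments cut at positions within reach ended mostly between T and G (32.2%) and between T and C (29.5%), and cuts between C and A took 8.39% of them. No 3'-half read began behind a T and before a G. In tRNA-Gly-GCC-1-1 that cut lies just before the anticodon, where only the 3'-half lacking 2 bases would fit in 40 nt. The 3'-halves and 5' fragments therefore cannot be compared there. The motif TTCGA of the T loop, searched on the sense strand, stood in 127 of the 142 members (97.2% of reads) and in 53.0% of the 168 tRNAs. The other 15 held TTCAA, found in 26.8% of the tRNAs.

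A smaller share of 3'-half reads kept the whole CCA end in each experimental library than in any control library. A whole CCA end was kept by 46 members with 1573 reads, 56 members with 719 reads lacked the last base, and 40 with 279 reads lacked 2. Just outside the rule, 30 sequences with 95 reads lacked 3. The whole end was found on 81.7%, 77.1% and 72.1% of 3'-half reads in control libraries 1, 2 and 3, and on 62.9%, 56.7% and 35.6% in experimental libraries 1, 2 and 3. The means were 51.7% ± 14.3 against 77.0% ± 4.83 (SD, n = 3 each), with an exact permutation p = 0.1, the smallest possible, and 0.4 after adjustment over the 4 measures. Ends short of 1 base made up 19.5% ± 3.39 of reads against 33.0% ± 5.37, and those short of 2 bases 3.50% ± 2.01 against 15.2% ± 8.94 (SD, n = 3 each), without overlap in either case.

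The groups overlapped when either of 2 sets of reads was left out, with the experimental mean still the lower. Without Val-TAC 37-76 the control libraries had 67.9% ± 8.65 and the experimental 50.2% ± 14.8 (SD, n = 3 each), with overlap (exact permutation p = 0.2). Without the Glu members the values were 79.1% ± 4.33 and 69.3% ± 11.1, again with overlap (exact permutation p = 0.2, n = 3 each). Where only starts were counted at which the whole CCA end fits in 40 nt, the groups stayed apart, at 83.4% ± 2.40 against 58.5% ± 11.9 (SD, n = 3 each, exact permutation p = 0.1). At those starts they stayed apart without the Glu members too, at 86.9% ± 4.22 against 73.1% ± 10.7 (SD, n = 3 each, exact permutation p = 0.1). With sequences of 1 anticodon only, which leaves out most Glu reads, they overlapped, at 76.7% ± 6.94 against 66.0% ± 12.1 (SD, n = 3 each, exact permutation p = 0.3). All but the last of these settings were chosen after the data were seen.

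Among the 4 families with the most reads, the whole CCA end was rarest on Glu in the mean of each group, though in control 2 it was rarer on Gly (71.7%). Over all starts, a whole CCA end stood on 65.5%, 73.2% and 64.0% of Glu reads in control libraries 1, 2 and 3 and on 51.9%, 24.1% and 14.5% in experimental libraries 1, 2 and 3. Only at starts where such an end fits in 40 nt, the Glu values were 65.5%, 75.0% and 69.6% against 53.9%, 34.3% and 22.0%. The values that follow are over all starts. Val reads had it in 94.0% ± 5.38 against 62.6% ± 12.7 and Ala reads in 91.9% ± 7.60 against 74.3% ± 8.91 (SD, n = 3 each), both without overlap. On Gly reads it was 80.9% ± 12.6 and 77.5% ± 7.23, with overlap (exact permutation p = 0.7). For each of Glu, Val and Ala the exact permutation p was 0.1, and 0.133 after adjustment over the 4 families. The reads behind these shares were few, down to 12 each for Val and Ala in control 3.

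**Figure D4:**
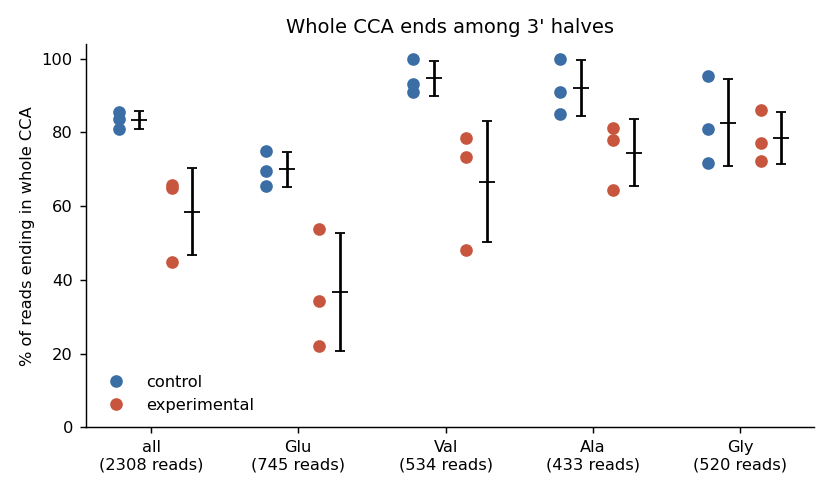
Percent of 3'-half reads that keep the whole CCA end, for all families and for Glu, Val, Ala and Gly, counted only at starts where such a read fits in 40 nt; points are 3 control and 3 experimental libraries, bars the mean and SD. The experimental libraries lie below the control libraries for all reads, Glu, Val and Ala, and overlap with them for Gly.

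Glutamic acid was the only 1 of the 14 amino acids whose share of 3'-half reads was higher in every experimental library than in every control library. In RPM, that is reads for every 1000000 tRNA reads of the library, Glu 3'-halves were at 105, 55.4 and 78.9 in control libraries 1, 2 and 3 and at 334, 131 and 133 in experimental libraries 1, 2 and 3. The means were 79.9 ± 25.1 and 199 ± 117 (SD, n = 3 each, exact permutation p = 0.1, adjusted over 14 amino acids 0.233). Without experimental 1 the difference of 120 RPM was 52.2 RPM. In 6 of the 14 the groups did not overlap in RPM, against 27.4% of 113 sums of this kind over all amino acids and fragment classes of the series. The other 5 of these 6, lower in the experimental libraries, were Val, Asn, Ile, Thr and Phe. Counting only reads with the whole CCA end, Glu overlapped, at 53.4 ± 14.5 against 74.8 ± 85.6 (SD, n = 3 each, exact permutation p = 1).

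One Glu start had very few reads in the control libraries. Glu reads that start 1 base into the anticodon (base 35 of tRNA-Glu-CTC-1-1) numbered 0, 1 and 1 in control libraries 1, 2 and 3 and 11, 75 and 79 in experimental libraries 1, 2 and 3. In RPM this was 1.50 ± 1.58 against 31.3 ± 16.3 (SD, n = 3 each), without overlap, with an exact permutation p = 0.1 and 0.5 after adjustment over 5 starts. As a share of Glu reads the groups overlapped, at 2.15% ± 2.02 against 21.8% ± 15.6 (SD, n = 3 each). Control 3 had 1 of its 25 Glu reads at this start, a higher share than the 11 of 293 in experimental 1. Control libraries 1 and 2 held only 58 and 41 Glu reads in all. Glu 35-74 had 0, 1 and 1 reads against 6, 36 and 34, and Glu 35-73 had no control read against 4, 37 and 42. All Glu reads from this start that lack 2 bases were at 5.70, 19.7 and 23.6 RPM in experimental libraries 1, 2 and 3. Their mean was 8.75 times a floor of 3 counts in the 3 control libraries together (1.87 RPM). In control 3 alone, 3 counts are 9.46 RPM, more than experimental 1 had. With its whole CCA end such a read would be too long for the table, so the 2 shorter forms are the only ones that could be counted.

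At the main Glu place the groups overlapped. Glu 37-75, cut just behind the anticodon, had 24, 6 and 6 reads in control libraries 1, 2 and 3 and 72, 32 and 16 in experimental libraries 1, 2 and 3. In RPM that is 43.6, 8.10 and 18.9 against 82.1, 16.6 and 8.57. Of the 120 RPM by which Glu differed in all, reads with a whole CCA end made up 21.4 RPM.

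Valine 3'-halves were nearly all of tRNA-Val-TAC-1-1, with 537 of 545 reads, and were high in 1 library. Val-TAC 37-76 had 284, 22 and 4 reads in control libraries 1, 2 and 3 and 13, 26 and 15 in experimental libraries 1, 2 and 3, or 516, 29.7 and 12.6 against 14.8, 13.5 and 8.04 RPM. Control 1 was far above all others, and control 3 lay within the range of the experimental libraries. Its neighbour Val-TAC 38-76, 1 base shorter, did not share this excess: it had 13, 36 and 8 reads against 8, 17 and 9, or 23.6, 48.6 and 25.2 RPM against 9.13, 8.82 and 4.82, without overlap. Such a lack of overlap was common: in normalised CPM, 40.7% of the 2226 sequences of the fit described below had it. All Val 3'-halves together were at 585, 90.5 and 37.9 against 36.5, 32.2 and 26.8 RPM, and without Val-TAC 37-76 at 51.7 ± 23.3 against 19.7 ± 1.71 (SD, n = 3 each, exact permutation p = 0.1, no overlap). With another start window the Val groups overlapped: within 1 base of the anticodon the values were 201 ± 308 against 19.4 ± 5.42 RPM (exact permutation p = 0.4, n = 3 each), and within 4 bases 405 ± 335 against 121 ± 32.5 RPM (exact permutation p = 0.2, n = 3 each).

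The smaller families were close to the limit of counting. Asn-GTT 37-76 had 7, 4 and 4 reads in control libraries 1, 2 and 3 and 2, 0 and 2 in experimental libraries 1, 2 and 3. All Asn 3'-halves were at 16.9 ± 8.78 against 4.02 ± 1.83 RPM, and all Ile 3'-halves at 10.3 ± 5.36 against 3.08 ± 0.888 (SD, n = 3 each), each without overlap. Ile-AAT 37-76 had 7, 2 and 2 reads against 3, 1 and 7, and Met-CAT 37-75 had 3, 0 and 1 against 0, 1 and 2. Glu-CTC 34-73, which begins at the anticodon's first base, had 1 read in control 3 and 3 in experimental 3. Phe-GAA 38-75 had 2 reads, both in control 3. All Phe had 1, 2 and 2 reads in the control libraries and none in the experimental. Gly and Ala overlapped, at 83.5 ± 25.4 against 102 ± 71.3 and at 49.8 ± 18.9 against 63.9 ± 63.1 RPM (SD, n = 3 each). Gly-CCC 36-74 had 32, 16 and 4 reads against 63, 47 and 37. Ala was high in experimental 2, where Ala-CGC/TGC 37-75 had 116 reads, against 9 in experimental 1 and 32 in experimental 3.

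By the 3 lists of anticodons, those often named in stress (Gly-GCC, Gly-CCC, both Glu, both Lys, Val-AAC, Val-CAC and His-GTG) held 74 members. Their share of 3'-half reads was 26.2%, 41.1% and 53.5% in control libraries 1, 2 and 3 and 88.3%, 53.7% and 71.0% in experimental libraries 1, 2 and 3. Ala and Cys held 24 members, at 14.4% ± 9.20 and 17.8% ± 16.8 of reads, and the other anticodons 44 members, at 45.4% ± 21.1 and 11.2% ± 3.25 (SD, n = 3 each). In share the experimental libraries lay higher for the stress anticodons, by a narrow gap between control 3 and experimental 2, and lower for the others, Val-TAC among them. In RPM the stress anticodons overlapped, at 240, 131 and 145 in control libraries 1, 2 and 3 and 524, 203 and 189 in experimental libraries 1, 2 and 3 (172 ± 59.3 against 305 ± 189, SD, n = 3 each, exact permutation p = 0.3).

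In the fit across all sequences few members could be tested. Limma's voom method was run on the 2226 sequences with enough reads, of which 18.7% were called higher and 7.64% lower in the experimental libraries at an adjusted p under 0.05, or 26.3% in either direction. Of the 142 members 8 had enough reads and none was called. At an unadjusted p under 0.05, which 37.3% of the 2226 sequences had, it was 1, Val-TAC 37-76, with a log2 fold change of -2.11 ± 0.92 (SE) and a limma voom adjusted p = 0.0738. With each sequence's own spread in place of a shared one, its voom adjusted p was 0.457. In that setting 15 of the 2226 sequences were called higher and 8 lower. Val-TAC 37-76 had a log2 fold change of -0.73 without control 1. With control 2 left out it was called, at a voom adjusted p = 0.0384. With control 3 left out the voom adjusted p was 0.0149. The limma trend method and limma on log2(CPM + 1) called none either. The other 7 members tested had log2 fold changes from -1.84 for Val-TAC 38-76 to 1.10 for Glu 37-74.

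The outcome depended on the filter for low counts. With all 77567 sequences in the voom fit, 2.72% were called higher and 1.28% lower, and of the 142 members 8 were called higher and 2 lower. The 8 were 7 Glu sequences and Gly-CCC 37-74. Among the 7, Glu 35-73 had a log2 fold change of 4.43 ± 0.64 (SE, voom adjusted p = 2.35e-09) and Glu 35-74 had 3.42 ± 0.77 (SE, voom adjusted p = 0.000671). None of the 7 had a whole CCA end. The 2 called lower were Asn-GTT 37-76, at -2.71 ± 0.80 (SE, voom adjusted p = 0.0223), and a Phe-GAA sequence with 3 reads. In this fit all sequences, most of them very rare, share 1 estimate of the spread, and a fold change of a sequence with no control read depends on the prior count added.

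Sums by anticodon gave each 3'-half equally to the anticodons it matches. Of 112 such sums over all fragment classes, 8.04% were called higher and 0.893% lower by voom, 8.93% in either direction, and none of the 7 sums of 3'-halves was, with 1 higher and 1 lower at an unadjusted p under 0.05, which 22.3% of all sums had. Val-TAC had a log2 fold change of -1.83 ± 0.67 (SE, voom adjusted p = 0.0652), and the limma trend method called it (adjusted p = 0.0383). Without control 1 the voom value was -0.71. Glu-CTC was at 1.48 ± 0.70 (SE, voom adjusted p = 0.153) and Glu-TTC at 1.33 ± 0.68 (SE, voom adjusted p = 0.220), from largely the same reads. Neither overlapped between the groups, as was the case for 25.0% of the 112 sums: Glu-CTC had normalised CPM of 50.6, 23.1 and 30.8 in control libraries 1, 2 and 3 and of 117, 82.0 and 85.5 in experimental libraries 1, 2 and 3. Gly-CCC, Gly-GCC, Ala-CGC and Ala-TGC lay between -0.27 and 0.38 on the log2 scale, with standard errors of 0.67 to 0.80.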

How the data were processed

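The authors deposited 1 table of read counts per distinct sequence and library, per the file headers, with each alignment to a mature tRNA with CCA added or to a precursor, at most 1 mismatch. The RNA was extracted with Trizol and made into libraries with a commercial small RNA kit, per the labels' protocols; such kits ligate adapters to a 3' hydroxyl and a 5' phosphate, and no source used here names an end repair step. Neither is the aligner named. What the ligation step does to these counts was not tested.

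Sequences were selected by position (Python 3.11.15) and each counted once. The table's 1812 lines of text among the counts kept it from an automatic check of count columns, so limma 3.58.1 voom (R 4.3.3, prior count 0.5, own trimmed mean of M values factors) was used in place of a count test, after testing on simulated data. Kept sequences had 10 reads' worth in the median library in 3 libraries and 15 reads in all. In both fits the prior degrees of freedom were infinite, so all features shared 1 spread. Measures per library had two-sided exact permutation tests. The ratio added 0.5 reads to both terms. The members, the lists and the tests were chosen with earlier results of these data known. Named are the 10 most abundant members by their mean percent over libraries, where members within 2 nt of a more abundant one of the same anticodon stand under it, and the leading member of each anticodon with at least 1% of reads; other sequences were named after their values were seen. Comparisons between amino acids and the ends by family were added after the data were seen. Alternatives are given in the closing section. Some sequences are not reported here.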

Additional observations from a re-analysis of the deposited data

How the results depend on the processing

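The experimental minus control difference in the percent of 3'-halves was 0.0117 without control 1 and 0.00844 without the sequence Val-TAC 37-76, against -0.00897, and ran from -0.0205 to 0.0117 when each library was left out in turn. The log2 ratio to 5' fragments, -0.0881, became 0.335 without that sequence, 0.403 without control 1, 0.0345 without experimental 2 and 0.226 without experimental 3 (lowest -0.525). With sequences of 1 anticodon only it was -2.10, without overlap. The mean start difference of -0.135 nt became 0.0588 with ends at the last base only, 0.00399 with sequences of 1 anticodon and 0.0229 at starts where the CCA end fits, and lay between -0.210 and -0.0234 with a library left out. The difference in CCA share kept its sign under the 14 alternatives run, from -30.8 to -17.2 percentage points with a library left out. It was -10.7 with sequences of 1 anticodon, -17.7 without Val-TAC 37-76 and -9.80 without the Glu members, against -25.2.

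Without a filter on low counts 8 members were called higher and 2 lower. With a library left out 0 to 1 was called lower, namely Val-TAC 37-76, at -2.83 without control 2 and -3.58 without control 3. Of all sequences tested, 91 of 2020 and 52 of 1971 were called lower in these 2 settings. Of the anticodon sums 1, Val-TAC, was called lower with limma on log2(CPM + 1), limma trend, median-of-ratios factors, no filter, sequences of 1 anticodon, the replicate block and without experimental 2 (0 to 1 with a library left out). Correlations of same-numbered deviations were -0.310, -0.0573 and 0.136, and those of differently numbered ones ran from -0.417 to 0.378. With so few libraries they cannot settle whether the replicate numbers pair the samples. Under the replicate block the Val-TAC sum was -2.13, the Ala-CGC sum 0.104, and no single member was called.

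Fold changes near 0 changed sign. Scaling by library totals moved the Gly-GCC sum to -0.0291, Gly-CCC 35-74 to -0.240 and Glu 38-75 to -0.131, and median-of-ratios factors moved the last 2 to -0.164 and -0.0108; the median of all sequences moved from 0.21 to -0.07 and 0.01. Ala-CGC/TGC 37-75 was 0.19 with no filter. With a library left out, log2 fold changes ran from -1.14 to 0.36 for Ala-CGC/TGC 37-75, -0.27 to 1.15 for Gly-CCC 36-74, -0.47 to 0.76 for Gly-CCC 35-74, -0.41 to 1.43 for Glu 37-75 and -0.25 to 0.95 for Glu 38-75. Among the sums they ran from -1.28 to 0.64 for Ala-CGC, -0.48 to 1.14 for Ala-TGC, -0.00280 to 0.67 for Gly-CCC and -0.50 to 0.70 for Gly-GCC. Differences in RPM ran from -21.9 (without experimental 2) to 36.9 for Ala and from -22.5 (without experimental 1) to 42.8 for Gly. For Glu it was -0.490 RPM with sequences of 1 anticodon, which leaves out most Glu reads.

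Depth limits these results: 142 sequences shared 2571 reads, and 3 reads are 1.56 to 9.46 RPM.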

Other observations

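With at most 1 mismatch the same windows hold 644 sequences with 3885 reads. On mitochondrial tRNAs the windows hold 151 exact sequences with 6378 reads, more than on the nuclear tRNAs described here. The base before CCA was A in 97.2% of 3'-half reads, G in 2.14%, T in 0.622% and C in 0.0389%.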
